A study of Mus musculus with 12 samples.

Results

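The genes described here are type I interferon-stimulated genes, 41 genes listed by gene symbol. A gene was kept when a probe with its symbol had a detection p-value under 0.01 on at least 1 of the 12 arrays, and the probe with the highest mean signal stood for it. By this rule 34 of the 41 genes were measured, among 9307 named genes (11571 genes and unnamed probes) tested on the arrays. Herc6 and Ifi44 had no probe with their symbol here, and the probes of Ifit1, Oas1a, Oas3, Parp9 and Xaf1 were not detected on any array. Of the 34 measured genes, 23 were detected on all 12 arrays and 4 (Ifih1, Mx1, Isg20 and Sp100) in no untreated liver.

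Type I interferons are secreted proteins that cells make when receptors such as TLR4, the LPS receptor, or the cytosolic RNA sensors are engaged. They bind a receptor of the IFNAR1 and IFNAR2 chains, which through the kinases JAK1 and TYK2 activates a transcription factor complex with STAT2 and IRF9 that binds a promoter sequence called the interferon-stimulated response element (ISRE). The induced genes encode antiviral enzymes, sensors of foreign RNA, and brakes on the same pathway, and in the LPS-treated liver both Kupffer cells and hepatocytes are known to take part in this response.

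The arrays profiled total liver RNA of mice aged 7 weeks (mixed 129/Ola × C57BL/6), with 3 livers in each of 4 groups. Tmprss6 KO mice, which lack matriptase-2, the hepatocyte protease that restrains the iron hormone hepcidin, received an iron-balanced diet. Their controls were wild-type littermates with iron deficiency anemia (IDA), produced by an iron-deficient diet for 3 weeks from 4 weeks of age, so that diet and genotype changed together and cannot be told apart. Mice of both kinds were injected intraperitoneally with 0.1 mg/kg LPS (KO LPS and IDA LPS livers) or with saline (KO untreated and IDA untreated livers), and livers were taken 6 hours later. No source used here ties livers to BeadChips, and each liver is 1 mouse, so the p-values measure the spread between mice of a group.

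Tmprss6 stood at log2 intensities of 7.72, 7.82 and 7.90 in KO LPS livers against 9.61, 10.46 and 9.43 in IDA LPS livers, and at 8.39, 8.16 and 8.22 in KO untreated livers against 11.21, 10.29 and 10.39 in IDA untreated livers, so every liver matched its genotype label. The KO mice are described as male. Xist, the RNA of the inactive X chromosome, was strong in 3 untreated livers (IDA untreated 1, KO untreated 1 and KO untreated 2, at 11.84 to 12.05) and at 4.80 to 6.73 in the other 9, which include all LPS-treated livers. Between 12641 and 14423 probes were detected per liver. Summed normalized intensities of 10 hepatocyte markers lay at 394242 to 416060 over the 12 livers. Quantile normalization gives all arrays the same distribution, which holds a sum of bright probes nearly constant, so this sum does not measure hepatocyte content. Single hepatocyte markers had log2 ratios of -0.84 to 0.65 for KO minus IDA after LPS, and of -0.89 to 1.44 for LPS minus untreated in IDA livers. None of 9 T and NK cell markers was detected.

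Promoters of members with large LPS responses are shown with the promoter of Stat2, which did not pass the test between genotypes after LPS. Each runs from 250 bases before to 50 bases after the start of the gene, in the direction of transcription, from RefSeq on GRCm38.p6, and capitals mark matches to the ISRE letters (TTTC, any 2 bases, TTTC) on either strand or, in Ifit2 and Irf1, which had none, to the gamma-activated sequence (GAS) TTCNNNGAA, a site bound by STAT dimers. Isg15 lies at chr4:156200769-156201068 on the minus strand, Ifit3 at chr19:34583279-34583578 on the plus strand, Rsad2 at chr12:26456403-26456702 on the minus strand, Ifit2 at chr19:34550444-34550743 on the plus strand, Irf1 at chr11:53769764-53770063 on the plus strand and Stat2 at chr10:128270248-128270547 on the plus strand.
Isg15: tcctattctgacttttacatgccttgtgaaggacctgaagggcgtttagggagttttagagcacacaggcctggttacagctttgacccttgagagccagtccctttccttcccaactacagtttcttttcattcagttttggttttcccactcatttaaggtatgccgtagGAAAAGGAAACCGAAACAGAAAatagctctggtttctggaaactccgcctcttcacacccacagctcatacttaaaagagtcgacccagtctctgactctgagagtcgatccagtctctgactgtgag
Ifit3: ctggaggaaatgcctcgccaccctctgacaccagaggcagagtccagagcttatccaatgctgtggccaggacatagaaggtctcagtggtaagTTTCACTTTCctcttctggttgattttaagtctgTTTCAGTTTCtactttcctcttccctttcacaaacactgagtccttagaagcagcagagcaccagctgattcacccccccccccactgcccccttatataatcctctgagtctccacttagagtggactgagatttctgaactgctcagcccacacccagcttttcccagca
Rsad2: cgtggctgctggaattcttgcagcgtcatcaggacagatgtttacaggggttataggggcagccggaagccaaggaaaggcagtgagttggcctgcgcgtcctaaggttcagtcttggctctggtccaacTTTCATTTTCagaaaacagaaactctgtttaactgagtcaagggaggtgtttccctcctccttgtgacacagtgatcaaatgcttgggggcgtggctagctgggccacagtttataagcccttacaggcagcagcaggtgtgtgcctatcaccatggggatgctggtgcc
Ifit2: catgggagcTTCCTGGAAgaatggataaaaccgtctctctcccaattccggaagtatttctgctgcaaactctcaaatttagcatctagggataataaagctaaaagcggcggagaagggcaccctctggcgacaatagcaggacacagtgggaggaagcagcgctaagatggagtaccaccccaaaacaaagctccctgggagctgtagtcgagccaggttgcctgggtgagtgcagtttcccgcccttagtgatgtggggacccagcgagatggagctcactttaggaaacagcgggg
Irf1: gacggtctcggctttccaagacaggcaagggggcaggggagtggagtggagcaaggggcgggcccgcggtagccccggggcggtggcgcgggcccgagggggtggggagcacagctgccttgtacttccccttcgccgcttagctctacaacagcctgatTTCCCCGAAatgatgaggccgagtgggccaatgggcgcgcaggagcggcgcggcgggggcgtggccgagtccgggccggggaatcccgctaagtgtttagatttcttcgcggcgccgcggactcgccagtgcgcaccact
Stat2: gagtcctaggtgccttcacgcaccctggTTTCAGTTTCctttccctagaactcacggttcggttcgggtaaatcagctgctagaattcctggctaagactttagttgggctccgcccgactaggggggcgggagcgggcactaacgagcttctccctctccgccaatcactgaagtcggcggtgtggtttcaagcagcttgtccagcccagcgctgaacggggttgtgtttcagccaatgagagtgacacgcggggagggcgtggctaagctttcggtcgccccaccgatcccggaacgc
The table held a second start-site window for Ifit2 and for Irf1, with no ISRE and no GAS match, which is not printed. In Isg15 the capitals are a single run of 3 overlapping matches, in Ifit3 there are 2 separate matches, and in Rsad2 and Stat2 there is 1 each. The promoter table held 26 of the 34 measured members. Counting a gene when any of its windows had a match, an ISRE match stood in 11 of these 26 (42.3%), against 3.98% of the 7581 tested genes in the table and 3.99% of all 27025 genes in it, and a GAS match, whose letters can overlap those of an ISRE, stood in 8 (30.8%), against 8.49% and 9.55%. A match is a description of the letters in this window only. The 11 members with an ISRE match had a median log2 ratio of -0.91 for KO minus IDA after LPS and of 3.04 for LPS minus untreated in IDA livers, and the 15 without had medians of -0.70 and 3.00.

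In untreated livers, no interferon-stimulated gene passed the test between Tmprss6 KO and IDA mice. None of the 34 members was higher and none was lower in KO livers at an adjusted p-value under 0.05 (limma, Benjamini-Hochberg over all 11571 features), where 1.59% of all features were higher and 0.907% lower. At an unadjusted p-value under 0.05 there were 2 members (of 34), against 17.6% of all features, both with a lower mean in KO livers. Usp18, which strips ISG15 from proteins and holds back signalling at the interferon receptor, read 11.12, 10.09 and 10.45 in KO untreated livers against 11.22, 11.37 and 11.04 in IDA untreated livers (log2 ratio -0.65, 95% interval -1.23 to -0.07, adjusted p = 0.228). The KO untreated livers 2 and 3 lay below all IDA untreated livers and KO untreated 1 lay within them. The GTPase gene Mx2 read 6.55, 6.73 and 6.36 in KO untreated livers against 7.22, 7.07 and 6.94 in IDA untreated livers, without overlap (log2 ratio -0.53, adjusted p = 0.255). The median log2 ratio of the 34 members was -0.00, in a range of -0.65 to 0.30, and over all features it was -0.01.

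LPS raised almost all interferon-stimulated genes in both genotypes. In KO livers 31 of 34 members were higher after LPS and none was lower, against 10.2% of all features higher and 8.57% lower, with a median log2 ratio of 1.83. In IDA livers 33 were higher and none was lower, against 21.9% of all features higher and 26% lower, with a median of 2.85. The ubiquitin ligase gene Trim25, which acts on the RNA sensor RIG-I and in ISG15 attachment, did not pass in either genotype (log2 ratios of -0.28 in KO and -0.31 in IDA livers, adjusted p = 0.191 and 0.0949). In KO livers the RNA sensor gene Ifih1 and Bst2, which encodes the virus-tethering membrane protein tetherin, did not pass either (log2 ratios of 0.41 and 0.79, adjusted p = 0.270 and 0.122). Over all features the median log2 ratios were -0.04 in KO and -0.06 in IDA livers. Of the 23 members detected on all 12 arrays, 21 were higher after LPS in KO livers (10.1% of such features) and 22 in IDA livers (22.6%).

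**Figure D1:**
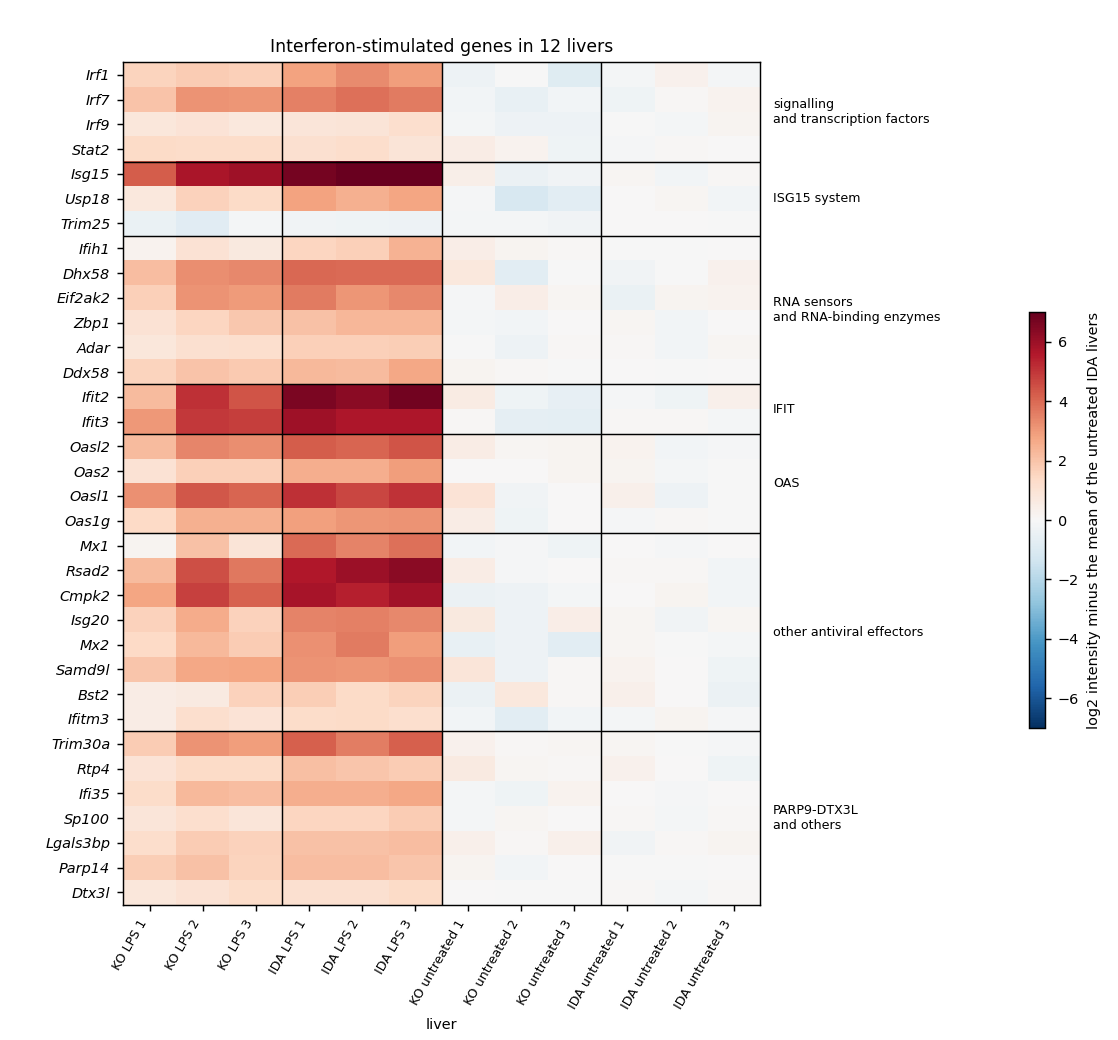
Log2 intensity of the 34 measured interferon-stimulated genes (rows, grouped by role) in 12 livers (columns), shown as the difference from the mean of the 3 IDA untreated livers, with red above and blue below it. The IDA LPS columns are the darkest red in most rows, KO LPS 1 is the palest of the LPS-treated livers in most rows, and the 6 untreated livers differ little.

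After LPS, a large part of the interferon-stimulated genes stood lower in Tmprss6 KO than in IDA livers. Of 34 members, 25 were lower, none was higher and 9 did not pass, while over all features 13.7% were lower and 16.1% higher. The median log2 ratio of the members was -0.91, with 33 values below 0 and 1 above, and that of all features was 0.02. The 3 KO LPS livers lay below all 3 IDA LPS livers in 27 members (21.8% of all features), and 16 members were called and lower by a log2 ratio of over 1 (2.91% of all features). Of the 23 members detected on all 12 arrays, 14 were lower (14% of such features). The other 11 could pass the detection filter through the livers in which they were high, so their calls are no separate support. The 9 members that did not pass were Irf9, Stat2, Trim25, Eif2ak2, Bst2, Ifitm3, Samd9l, Dtx3l and Parp14, at log2 ratios of -0.75 to 0.20. In total liver RNA, fewer cells of a type and less RNA per cell cannot be told apart.

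**Figure D2:**
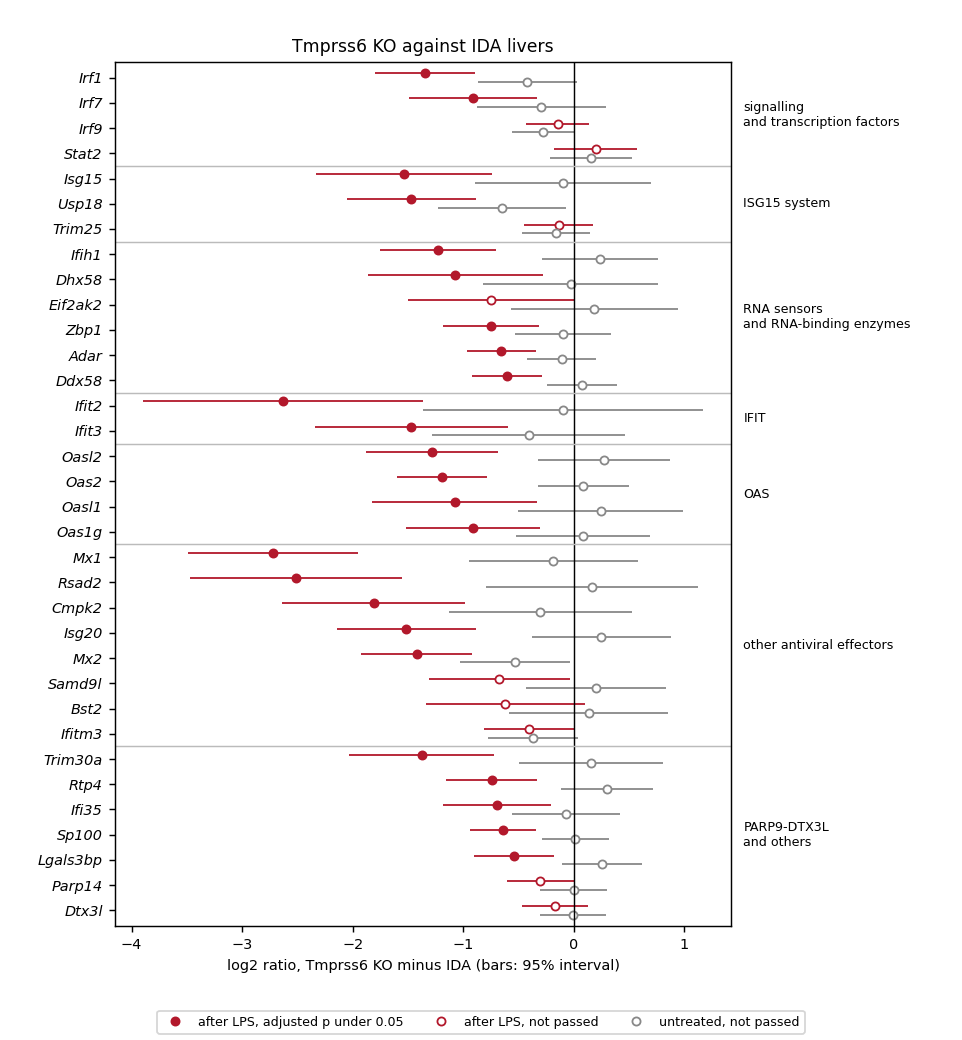
Log2 ratio of Tmprss6 KO minus IDA livers for each member, after LPS (red) and untreated (grey), with 95% intervals of the limma fit as bars and filled points where the adjusted p-value was under 0.05. After LPS 25 of 34 points are filled, all left of 0, and no grey point is filled.

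The KO LPS livers were not alike. The mean log2 intensity of the 34 members was 9.79, 10.69 and 10.52 in KO LPS livers 1, 2 and 3, against 11.35, 11.31 and 11.44 in IDA LPS livers, 8.45, 8.13 and 8.20 in KO untreated livers and 8.33, 8.27 and 8.30 in IDA untreated livers. KO LPS 1 was the lowest of its group in 28 of 34 members, and in 36.8% of all features. Without KO LPS 1, 18 members were lower in KO than in IDA livers after LPS (9.77% of all features), at a median log2 ratio of -0.61. Irf7, Dhx58, Oas1g, Oasl1, Ifi35, Rtp4 and Lgals3bp then no longer passed. Without IDA LPS 3, 18 were lower as well (9.92% of all features), at a median of -0.90. Of the 25 members, 16 passed whichever of the 12 livers was left out. KO LPS 2 and 3 both lay below all IDA LPS livers in 27 members, the same ones in which all 3 KO LPS livers did. The shares of all features for this count of 2 livers against 3, and for the 16 members, were not computed.

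Of the transcription factor genes of the pathway, Irf1 and Irf7 were lower in KO livers after LPS, while Irf9 and Stat2 did not pass. Irf1, an early-induced factor that also answers to interferon gamma, read 12.45, 12.66 and 12.57 in KO LPS livers against 13.73, 14.19 and 13.81 in IDA LPS livers. In untreated livers it read 10.53, 10.85 and 10.07 in KO mice against 10.75, 11.22 and 10.74 in IDA mice. The LPS-treated groups lay more than a log2 unit apart and the KO LPS livers were close to each other. The log2 ratio of KO minus IDA after LPS was -1.35 (95% interval -1.80 to -0.90, adjusted p = 0.000828), and the 4 other detected Irf1 probes gave -1.54 to -1.63. LPS raised Irf1 4.23-fold in KO livers (adjusted p = 4.5e-05) and 8.03-fold in IDA livers (adjusted p = 6.7e-07).

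Irf7, the factor that amplifies production of interferon alpha, read 8.90, 10.04 and 9.95 in KO LPS livers against 10.39, 10.74 and 10.51 in IDA LPS livers. The untreated values were 6.70, 6.37 and 6.67 in KO livers against 6.56, 6.96 and 7.10 in IDA livers. KO LPS 1 stood about a log2 unit under the other KO LPS livers, which were closer to the IDA LPS livers. The log2 ratio after LPS was -0.91 (95% interval -1.50 to -0.33, adjusted p = 0.0229), and without KO LPS 1 it was -0.55. Irf7 did not pass without KO LPS 1, IDA LPS 2 or IDA LPS 3 (adjusted p = 0.0512 to 0.0744). Stat2, the STAT partner of IRF9 in the ISRE-binding complex, read 9.32, 9.28 and 9.23 in KO LPS livers against 9.11, 9.23 and 8.90 in IDA LPS livers, the 1 member with a higher mean in KO livers (log2 ratio 0.20, 95% interval -0.17 to 0.57, adjusted p = 0.408). Stat2 rose after LPS in both genotypes, 2.22-fold in KO livers (adjusted p = 0.000746) and 2.16-fold in IDA livers (adjusted p = 0.000251). Irf9 gave a log2 ratio of -0.15 after LPS (adjusted p = 0.421).

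In the ISG15 system, which couples a ubiquitin-like protein to other proteins, Isg15 and Usp18 were lower in KO livers after LPS and Trim25 did not pass. Isg15, the modifier itself, read 12.68, 14.17 and 14.36 in KO LPS livers against 15.12, 15.34 and 15.36 in IDA LPS livers, with untreated values of 8.83, 8.05 and 8.17 in KO livers against 8.59, 8.24 and 8.50 in IDA livers. LPS raised it 41.9-fold in KO livers (adjusted p = 2.9e-06) and 114-fold in IDA livers (adjusted p = 1.3e-07). All 3 KO LPS livers lay below the IDA LPS livers, KO LPS 1 by the widest margin. The log2 ratio of KO minus IDA after LPS was -1.54 (95% interval -2.33 to -0.74, adjusted p = 0.00881), and without KO LPS 1 it was -1.005 (adjusted p = 0.00938). Usp18 read 11.93, 12.80 and 12.57 in KO LPS livers against 14.04, 13.69 and 13.99 in IDA LPS livers, again without overlap (log2 ratio -1.47, 95% interval -2.05 to -0.89, adjusted p = 0.00214).

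Among 6 genes of RNA sensors and RNA-binding enzymes, 5 were lower in KO livers after LPS (Ifih1, Ddx58, Dhx58, Zbp1 and Adar) and Eif2ak2, the kinase PKR that stops translation on double-stranded RNA, did not pass (log2 ratio -0.75, adjusted p = 0.122). Ifih1, the sensor MDA5 of long double-stranded RNA, was detected on 1 array only. Its values were 5.13, 5.89 and 5.54 in KO LPS livers against 6.37, 6.55 and 7.33 in IDA LPS livers, and 5.33, 5.04 and 4.95 in KO untreated livers against 4.84, 4.85 and 4.93 in IDA untreated livers. The IDA LPS livers lay above all others, and IDA LPS 3 was the liver in which the probe was detected. Against the lowest intensity of detected probes, Ifih1 was at least 1.39-fold lower in KO LPS than in IDA LPS livers (fitted log2 ratio -1.23, adjusted p = 0.00339), where a bound leaves the group with a detected array at its measured mean and sets each array of the other group at the higher of the lowest detected intensity and its own value.

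Dhx58, the sensor LGP2 that modulates the other sensors, read 9.80, 10.92 and 10.98 in KO LPS livers against 11.67, 11.64 and 11.62 in IDA LPS livers. In untreated livers it read 8.37, 6.88 and 7.59 in KO mice against 7.38, 7.61 and 7.95 in IDA mice. The IDA LPS livers were almost equal and the KO LPS livers all lower, with a log2 ratio of -1.07 (adjusted p = 0.0441) that was -0.69 without KO LPS 1. Dhx58 did not pass without KO LPS 1, any IDA LPS liver, KO untreated 3 or IDA untreated 2 (adjusted p = 0.0561 to 0.164). Ddx58, the sensor RIG-I, Zbp1, a sensor of Z-form nucleic acids, and the RNA editing enzyme Adar gave log2 ratios of -0.61, -0.75 and -0.65 after LPS (adjusted p = 0.00958, 0.0155 and 0.00564), and Zbp1 did not pass without IDA LPS 2 or IDA LPS 3 (adjusted p = 0.0504 and 0.0523). In a fit of all detected probes, a second Ddx58 probe, detected on 2 arrays, gave 0.48 (adjusted p = 0.0778), and with detected probes averaged Ddx58 did not pass (log2 ratio -0.06, adjusted p = 0.765). The 4 Adar probes gave -0.11 to -0.87.

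Both measured IFIT genes, whose proteins bind viral RNA ends, were among the strongest LPS responders and were lower in KO livers. Ifit2 read 8.38, 11.30 and 10.59 in KO LPS livers against 12.74, 12.48 and 12.94 in IDA LPS livers, and 6.73, 5.87 and 5.61 in KO untreated livers against 6.09, 5.87 and 6.54 in IDA untreated livers, where it was detected in 1 liver of each genotype. The KO LPS livers spanned almost 3 log2 units and did not reach the IDA LPS livers. The log2 ratio after LPS was -2.63 (95% interval -3.89 to -1.36, adjusted p = 0.00621), and LPS raised Ifit2 16.2-fold in KO livers (adjusted p = 0.000628) and 93.8-fold in IDA livers (adjusted p = 4.2e-06). Ifit3, which partners with IFIT1 in RNA binding, read 12.59, 14.47 and 14.36 in KO LPS livers against 15.45, 15.17 and 15.20 in IDA LPS livers (log2 ratio -1.47, adjusted p = 0.0172), and 9.60, 8.90 and 8.86 in KO untreated livers against 9.60, 9.60 and 9.39 in IDA untreated livers. Without KO LPS 1 the Ifit3 ratio was -0.86 (adjusted p = 0.0152). Ifit3 did not pass without IDA LPS 1 (adjusted p = 0.0534), and its probe was not tested for a match to Ifit3b, a near-identical neighbour.

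All 4 measured genes of the OAS family were lower in KO livers after LPS, at log2 ratios of -0.91 for Oas1g, -1.19 for Oas2, -1.08 for Oasl1 and -1.28 for Oasl2. OAS enzymes make the oligoadenylates that switch on RNase L, and the OAS-like proteins carry ubiquitin-like domains. Oas2 read 7.35, 8.03 and 8.04 in KO LPS livers against 8.86, 8.86 and 9.27 in IDA LPS livers (adjusted p = 0.000955), and 6.40, 6.36 and 6.52 in KO untreated livers against 6.51, 6.19 and 6.32 in IDA untreated livers. Oasl2 read 9.90, 11.13 and 10.98 in KO LPS livers against 11.95, 11.79 and 12.12 in IDA LPS livers (adjusted p = 0.00514), and 8.23, 7.82 and 7.89 in KO untreated livers against 7.97, 7.52 and 7.62 in IDA untreated livers. In both genes the LPS-treated groups were apart and the untreated groups overlapped. Oas1g was at -0.55 without KO LPS 1 and did not pass without KO LPS 1, IDA LPS 2 or IDA LPS 3 (adjusted p = 0.073 to 0.081), and Oasl1 without KO LPS 1 or 3 or IDA LPS 1 or 3 (adjusted p = 0.0501 to 0.126). The Oas1 genes are near copies of each other, and cross-hybridisation among them was not tested.

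Of 8 other antiviral effectors, 5 were lower in KO livers after LPS (Mx1, Rsad2, Cmpk2, Isg20 and Mx2), and Samd9l, an inhibitor of cell growth and translation, Bst2 and Ifitm3, which blocks virus entry from endosomes, did not pass (log2 ratios of -0.67, -0.62 and -0.41). Mx1, a dynamin-like GTPase that blocks influenza virus and of which many laboratory strains carry a defective copy, read 5.25, 7.13 and 5.94 in KO LPS livers against 9.03, 8.52 and 8.93 in IDA LPS livers, and 4.87, 4.99 and 4.77 in KO untreated livers against 5.10, 4.97 and 5.11 in IDA untreated livers. It was detected in all 3 IDA LPS livers, in KO LPS 2 and in no other liver. The log2 ratio after LPS was -2.72 (95% interval -3.49 to -1.96, adjusted p = 0.000309), and -2.25 with each undetected value, in whichever group, raised to the lowest detected intensity of its array. Rsad2 (viperin), an enzyme that makes a chain-terminating nucleotide, read 10.83, 13.12 and 12.30 in KO LPS livers against 14.25, 14.61 and 14.92 in IDA LPS livers, and 9.16, 8.56 and 8.67 in KO untreated livers against 8.73, 8.73 and 8.44 in IDA untreated livers. Its LPS-treated groups lay more than a log2 unit apart, with a log2 ratio of -2.51 (95% interval -3.47 to -1.55, adjusted p = 0.00178). Cmpk2, a mitochondrial nucleotide kinase gene that neighbours Rsad2 on chromosome 12, gave -1.81 (adjusted p = 0.00477). Isg20, an RNA exonuclease gene, read 6.99, 7.94 and 6.96 in KO LPS livers against 8.84, 8.89 and 8.70 in IDA LPS livers, and 6.02, 5.01 and 5.80 in KO untreated livers against 5.52, 5.09 and 5.48 in IDA untreated livers. The KO LPS livers lay between both untreated groups and the IDA LPS livers, with a log2 ratio of -1.51 after LPS (adjusted p = 0.00288). Mx2 gave -1.42 (adjusted p = 0.0011).

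Among the 7 remaining measured genes, 5 were lower in KO livers after LPS (Trim30a, Rtp4, Ifi35, Sp100, which encodes a nuclear body protein, and Lgals3bp, at log2 ratios of -1.38 to -0.54), and the ubiquitin ligase gene Dtx3l and the ADP-ribosyltransferase gene Parp14 did not pass (log2 ratios of -0.17 and -0.30). Trim30a, which in mouse restrains Toll-like receptor signalling to NF-kB, read 7.92, 9.32 and 9.12 in KO LPS livers against 10.34, 9.78 and 10.38 in IDA LPS livers, and 6.45, 6.24 and 6.29 in KO untreated livers against 6.32, 6.12 and 6.07 in IDA untreated livers. Rtp4, a receptor transporter protein gene, read 6.99, 7.36 and 7.33 in KO LPS livers against 8.13, 7.98 and 7.81 in IDA LPS livers, and 6.67, 6.17 and 6.10 in KO untreated livers against 6.30, 6.03 and 5.72 in IDA untreated livers. The LPS-treated groups did not overlap in either gene (adjusted p = 0.00571 and 0.0125), and Rtp4 did not pass without KO LPS 1 (adjusted p = 0.0516). Ifi35 and Lgals3bp, which encode an interferon-induced leucine zipper protein and a secreted glycoprotein, did not pass without KO LPS 1 or any IDA LPS liver, nor Lgals3bp without KO LPS 3 (adjusted p = 0.0529 to 0.114). Without KO LPS 1 the log2 ratio of Ifi35 was -0.39, against -0.70 with all livers. A second Dtx3l probe, detected on 10 arrays, gave a log2 ratio of -0.60 for KO minus IDA after LPS (adjusted p = 0.00844) and of 0.02 for LPS minus untreated in IDA livers, so the 2 probes of this gene disagree.

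The direct test of the difference between the LPS response of KO livers and that of IDA livers (interaction) passed for 8 members, all with a smaller response in KO livers, and for none in the other direction, against 5.49% of all features with a smaller value in KO livers and 5.46% with a larger one. They were Ifih1, Oas2, Oasl2, Mx1, Rsad2, Isg20, Trim30a and Rtp4, and 20 of 34 members had an unadjusted p-value under 0.05, against 26.7% of all features. Which members passed depended on the probe. In a fit of all detected probes, 1 other probe each of Oasl1, Oas1g and Irf1 passed (adjusted p = 0.00443, 0.00581 and 0.0104). These were detected on 6, 6 and 4 arrays, and further probes of Oasl1 and Irf1 did not pass. In 31 of the 34 members the LPS log2 ratio was smaller in KO than in IDA livers, with a median difference of -0.91. Over all features it was smaller in 5394 of 11571, with a median difference of 0.03. Of the 23 members detected on all 12 arrays, Oasl2 and Rsad2 passed (5.02% of such features). The KO minus IDA difference after LPS is part of this contrast, so the 2 results share the same livers.

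**Figure D3:**
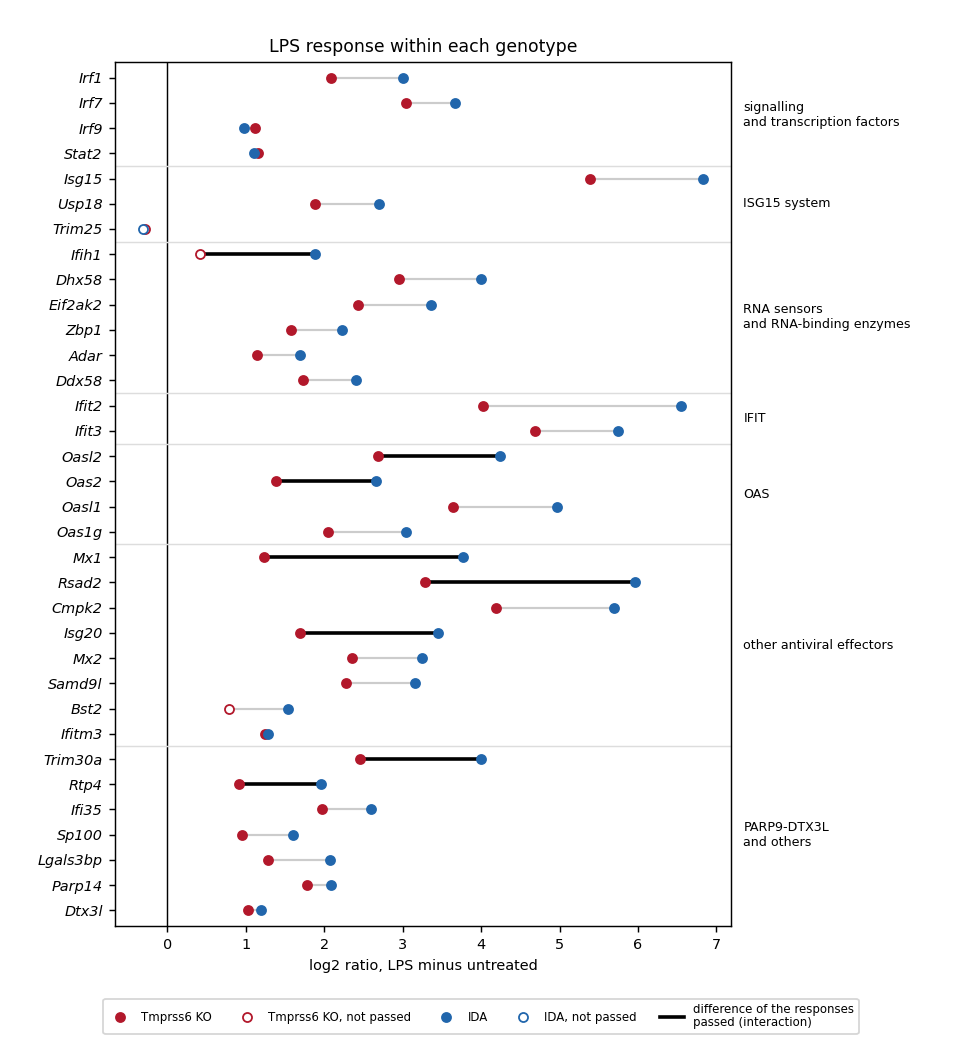
Log2 ratio of LPS-treated minus untreated livers for each member in Tmprss6 KO (red) and IDA (blue) livers, with open points where the adjusted p-value was 0.05 or more, black bars for the 8 members that passed the interaction test and grey bars for the other 26. Red points lie left of blue points in 31 of 34 members, and the KO value was the smaller in 5394 of all 11571 features (not drawn).

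Rsad2 was raised 9.74-fold by LPS in KO livers (adjusted p = 0.000406) and 62.3-fold in IDA livers (adjusted p = 1.2e-06), a difference of -2.68 on the log2 scale (95% interval -4.03 to -1.32, adjusted p = 0.0202). Oasl2 was raised 6.45-fold in KO livers and 19.0-fold in IDA livers, a difference of -1.56 (adjusted p = 0.0268). Isg20 was not detected in untreated livers and was at least 1.93-fold higher after LPS in KO livers and at least 4.84-fold higher in IDA livers. These responses were present in both genotypes and smaller in KO livers. Mx1 was at least 4.91-fold higher after LPS in IDA livers, while in KO livers its fitted log2 ratio was 1.23 (adjusted p = 0.0302) with 1 of 3 livers detected, and it did not pass without KO LPS 3 or any 1 of the KO untreated livers (adjusted p = 0.0585 to 0.0803). This Mx1 call was also lost without the 3 Xist-positive livers (adjusted p = 0.212), in a fit of the KO livers alone (adjusted p = 0.0899) and with no filter on detection (adjusted p = 0.0717), and without KO LPS 2 its log2 ratio was 0.72. Oas2, Trim30a and Rtp4, which were not detected in IDA untreated livers, were at least 5.53-fold, 12.4-fold and 2.71-fold higher after LPS in IDA livers, and their fitted increases in KO livers were 2.60-fold, 5.50-fold and 1.89-fold. With each undetected value of all 4 groups raised to the lowest detected intensity of its array, the differences between the responses were -2.07 for Mx1, -1.33 for Isg20, -1.14 for Oas2, -1.21 for Trim30a, -0.60 for Rtp4 and -0.41 for Ifih1.

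**Figure D4:**
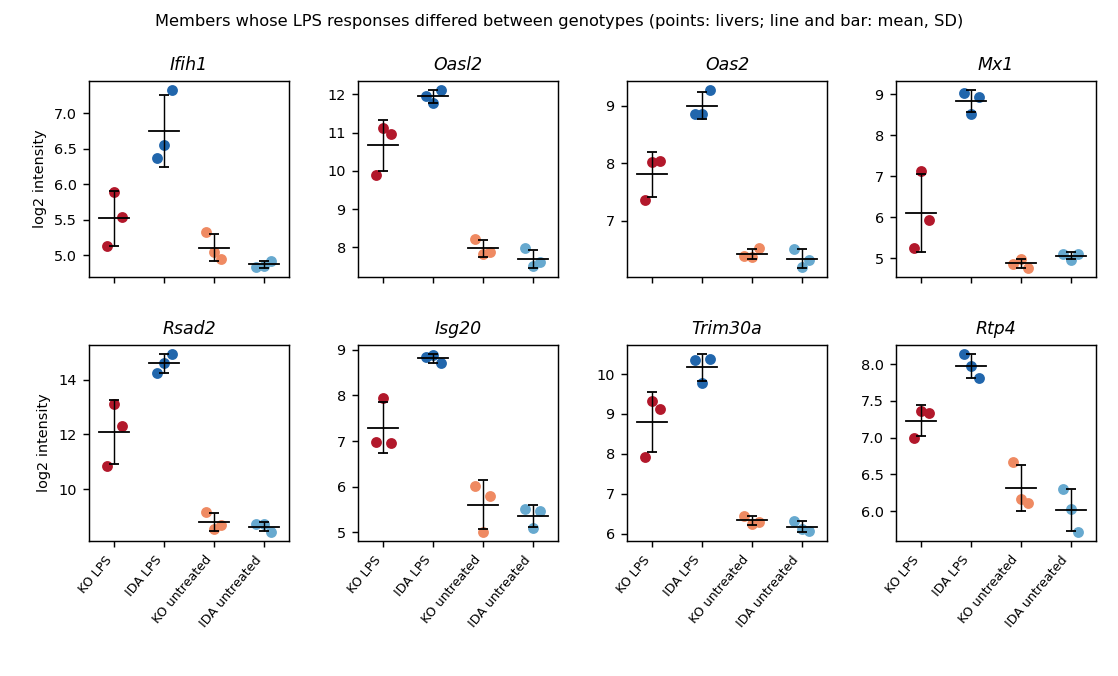
Log2 intensity of the 8 members with a significant interaction in each liver (points), with the group mean (line) and SD (bar, n = 3), for KO LPS, IDA LPS, KO untreated and IDA untreated livers, on a vertical scale that differs between genes. In all 8 genes the 3 KO LPS livers lie below the 3 IDA LPS livers.

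Without the 3 Xist-positive untreated livers, only Isg20 of the 8 passed the interaction test (log2 difference -2.03, adjusted p = 0.0426), while Ifih1, Oas2, Oasl2, Rsad2, Mx1, Trim30a and Rtp4 were at -1.30, -1.46, -1.61, -2.60, -2.45, -1.57 and -0.97 with adjusted p-values of 0.0595 to 0.176. KO untreated 3 then stands alone for its group and is assumed to vary like the others. The ratio of KO minus IDA after LPS uses no untreated liver, so its median over the members, -0.91, could not change here. With 1 liver left out at a time, Rsad2 did not pass without IDA LPS 3 (adjusted p = 0.0518), and Oasl2 did not pass without IDA LPS 3, KO untreated 1, IDA untreated 2 or IDA untreated 3 (adjusted p = 0.0547 to 0.064). Trim30a did not pass without IDA LPS 1 or 3, any KO untreated liver, or IDA untreated 2 or 3 (adjusted p = 0.0623 to 0.0902). Rtp4 did not pass without KO LPS 1, IDA LPS 1 or 2, KO untreated 1, or IDA untreated 2 or 3 (adjusted p = 0.0548 to 0.069). The other 4 (Ifih1, Oas2, Mx1 and Isg20) passed in all 12 of these fits, but each was undetected on several arrays, and the 2 members detected on every array, Oasl2 and Rsad2, were among those that lost the call.

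Of the interferon pathway upstream, little was measured. Among 21 listed interferon ligand genes, 3 were detected (Ifna6, Ifna15 and Ifnab), and none of the 3 passed in any comparison. The single probe of Ifnb1, the interferon beta gene, was not detected on any array, and neither was that of the receptor chain gene Ifnar1. Ifnar2, the other receptor chain gene, read 7.88, 8.03 and 7.71 in KO LPS livers against 8.34, 8.85 and 8.50 in IDA LPS livers, without overlap, and 7.04, 7.13 and 7.07 in KO untreated livers against 7.41, 7.57 and 6.72 in IDA untreated livers. It was lower in KO livers after LPS (log2 ratio -0.69, adjusted p = 0.0246). Ifnlr1, a receptor gene for interferon lambda, was the other of the 5 measured receptor genes to pass, where 13.7% of all features were lower. It was at least 1.18-fold lower in KO LPS than in IDA LPS livers (adjusted p = 0.0068). Ifnlr1 was detected in 1 IDA LPS liver only and passed the detection filter through that liver, so its call is no separate support.

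Of 18 measured genes of interferon induction and signalling, 5 were lower and none higher in KO livers after LPS, against 13.7% of all features lower and 16.1% higher. These were Socs3, a feedback inhibitor of JAK kinases (log2 ratio -1.46, adjusted p = 0.0191), Irf8, a factor of myeloid cells (-0.70, adjusted p = 0.0241), Ticam1, the adaptor TRIF that links TLR4 to interferon production (-0.66, adjusted p = 0.01), Tbk1, the kinase that activates IRF3 (-0.63, adjusted p = 0.00474), and Stat3. For Stat3 the paper reports no change of the mRNA, by PCR after LPS. Irf3, the factor that starts interferon beta transcription, read 11.94, 11.82 and 12.07 in KO LPS livers against 12.18, 12.17 and 12.02 in IDA LPS livers. The groups overlapped (log2 ratio -0.18, 95% interval -0.43 to 0.07, adjusted p = 0.267). Of 48 further measured interferon-stimulated genes outside the set of 41, 20 were lower and none higher in KO livers after LPS, at a median log2 ratio of -0.47, against the same shares of all features. The 4 largest differences among them were in Samhd1, which breaks down nucleotides (-1.96, adjusted p = 0.000156), the chemokine genes Ccl2 and Cxcl10 (-1.70 and -1.66, adjusted p = 0.000951 and 0.00422), and Plscr1, a phospholipid scramblase gene (-1.29, adjusted p = 0.00033). None of these lists had a gene that passed in untreated livers.

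Markers of other cells moved with the genotype after LPS. Summed normalized intensities of 6 measured neutrophil markers (of 11 listed, with Ngp, Camp, Mmp8, Elane and Mpo not detected) were 3616, 8619 and 7714 in KO LPS livers 1, 2 and 3 against 19003, 17232 and 14814 in IDA LPS livers, and 903 to 1327 in KO untreated livers against 632 to 2001 in IDA untreated livers. KO LPS 1, the liver lowest in most members, was the lowest of the LPS-treated livers in these as well. Sums of 10 of 12 Kupffer cell markers were 5374 to 8640 in KO LPS livers against 3820 to 4635 in IDA LPS livers, and 7443 to 7802 in KO untreated livers against 7141 to 8929 in IDA untreated livers. Sums of 7 of 8 liver endothelial markers were 7012 to 7960 in KO LPS livers against 3776 to 4775 in IDA LPS livers, and 10669 to 12932 in KO untreated livers against 8854 to 10926 in IDA untreated livers. Both sums were higher in KO than in IDA livers after LPS, opposite to the neutrophil sum. All 10 Kupffer cell markers had KO minus IDA log2 ratios above 0 after LPS. Of the 7 liver endothelial markers 5 did and 2 lay below 0, in a range of -0.42 to 1.72. Sums of 3 of 6 monocyte markers overlapped, at 4940 to 7199 in KO LPS livers against 5450 to 6862 in IDA LPS livers. They were 2108 to 2392 in KO untreated livers against 2089 to 2506 in IDA untreated livers. The 3 markers differed from each other after LPS, with KO minus IDA log2 ratios of -1.19 to 0.18, 2 below 0 and 1 above. Of 6 markers of plasmacytoid dendritic cells, major makers of interferon alpha, the defining marker Siglech was not detected and only Irf8 and Ly6d were measured, at sums of 457 to 751 in KO LPS livers against 1065 to 3448 in IDA LPS livers, and 215 to 538 in KO untreated livers against 156 to 1102 in IDA untreated livers. Sums of 3 of 6 erythroid transcripts were 23626 to 30556 in KO LPS livers against 9877 to 18720 in IDA LPS livers, and 15455 to 34658 in KO untreated livers against 6966 to 11897 in IDA untreated livers. The part of these cells in the lower values of the interferon-stimulated genes was not tested.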

How the data were processed

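Total liver RNA of 12 mice was hybridised to Illumina MouseWG-6 v2 BeadChips. The deposited table holds raw average signal intensities and detection p-values of 45281 probes, which the authors exported from GenomeStudio, and a second deposited table holds intensities that the authors normalized by cubic spline. The neqc function of limma (version 3.58.1, under R 4.3.3) turned the deposited raw intensities into log2 intensities, by a background correction with negative controls inferred from the detection p-values, an offset of 16 and quantile normalization. Probes with a detection p-value under 0.01 on at least 1 array were kept (16286), and the brightest probe stood for each gene (34885 probes had 1 gene symbol, 18 several and 10378 none), which left 11571 features. Symbols were updated through the RefSeq gene table of GRCm38.p6.

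A linear model of the 4 groups used all 12 arrays (limma), with moderated tests and Benjamini-Hochberg adjustment within each comparison, and a gene was called at an adjusted p-value under 0.05. The authors also used limma. Arrays give no read depth, and 3 livers per group limit the precision. Livers of a group correlated at 0.979 to 0.990, with the lowest value among IDA untreated livers, and none was a copy of another. The scripts were tested on simulated data.

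The members and the gene lists were chosen with earlier results of these data known. Values in every liver are given for the 2 members of each role with the largest KO minus IDA difference after LPS, for every member that passed in untreated livers or in the interaction, and for Ifnar2, Irf3 and Tmprss6. Of each pathway list, up to 4 called genes with the largest difference after LPS are named. Stat2, Mx2 in untreated livers and the promoters were chosen after the values were seen. Alternatives were other background corrections, scalings, filters, probe choices, fits and subsets of livers.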

Additional observations from a re-analysis of the deposited data

Results flagged for a closer look

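The LPS response differed between Tmprss6 KO and IDA livers, by the interaction test, in 8 members: the log2 response in KO minus that in IDA livers was -1.47 for Ifih1, -1.28 for Oas2, -1.56 for Oasl2, -2.68 for Rsad2, -2.54 for Mx1, -1.76 for Isg20, -1.53 for Trim30a and -1.04 for Rtp4. In each of these genes the response was smaller in KO livers. Only Oasl2 and Rsad2 of the 8 were detected on every array (2 of 23 such members, against 5.02% of such features), and both lost the call in at least 1 fit without a liver. Ifih1, Mx1 and Isg20 were detected in no untreated liver. With undetected values raised to the lowest detected intensity, the differences were -0.41 for Ifih1, -1.14 for Oas2, -2.07 for Mx1, -1.33 for Isg20, -1.21 for Trim30a and -0.60 for Rtp4. Without the 3 Xist-positive livers only Isg20 passed (-2.03, adjusted p = 0.0426 by limma), and the other 7 had adjusted p-values of 0.0595 to 0.176. Groups of 3 livers are too small for a test of single outlying livers.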

How the results depend on the processing

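None of the 34 members reversed a called direction under the 24 alternatives tried. Of 3871 values, 3759 kept their side of the threshold, 72 no longer passed and 40 passed newly. Where a left-out liver was outside the compared groups, only the p-values could change and not the log2 ratios. Values that did not pass could change sign, such as the Ifitm3 interaction, at -0.04 with all livers and 0.14 without KO LPS 1. Members called in untreated livers numbered 0 except with no filter on detection, where 1 was called, Ifit1 (-0.61, adjusted p = 0.0214), whose probe was not detected on any array. After LPS, 16 members differed between KO and IDA livers when an absolute log2 ratio over 1 was required too. For the interaction the count was 14 with the authors' normalized intensities (6.39% of all features lower) and 15 with no background correction (6.49%). It was 11 with detected probes averaged (5.45%), where Irf1, Oas1g and Oasl1 were gained. Without the 3 Xist-positive livers the median difference of the members was -0.87. The median LPS response in KO livers was 1.55 with no background correction, and that in IDA livers was 2.22 with no background correction and 2.23 with the authors' intensities. Leaving out 1 liver at a time on the same normalized values gave 18 to 26 members for KO minus IDA after LPS (median -1.11 to -0.61), 5 to 13 for the interaction (median -1.06 to -0.62), 30 to 31 for LPS in KO livers (median 1.67 to 1.99), 33 to 34 for LPS in IDA livers (median 2.79 to 2.93) and 0 in untreated livers (median -0.10 to 0.04). The count of 34 in IDA livers, without KO LPS 2 or KO LPS 3, included Trim25 called lower (-0.31, adjusted p = 0.0369 and 0.0396). Without KO LPS 3, Trim25 was called lower in KO livers too (-0.45, adjusted p = 0.0371). The lowest count for KO minus IDA after LPS came without KO LPS 1 and without IDA LPS 3. The interaction count was 5 without IDA LPS 3 (3.51% of all features lower) and 13 without KO LPS 2 (4.36%). Irf7, Dhx58, Zbp1, Ifit3, Oas1g, Oasl1, Ifi35, Rtp4 and Lgals3bp lost their call after LPS without at least 1 liver. With no filter on detection, Dhx58, Oasl1 and Ifi35 after LPS (adjusted p = 0.0699, 0.0545 and 0.0524) and Oasl2, Trim30a and Rtp4 in the interaction (0.0565, 0.0852 and 0.0565) did not pass. After LPS, Ifi35 did not pass in a fit of the compared groups (0.0662), nor did Dhx58 with trend and robust moderation (0.0627). The causes of these changes were not tested.

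With median scaling in place of quantile normalization, the median of all features moved to -0.15 for LPS minus untreated in IDA livers and 17.3% of features were higher and 28.4% lower (21.9% and 26% with quantile normalization), and Trim25 was then called lower (-0.42, adjusted p = 0.0201). For KO minus IDA after LPS 16.7% were higher and 8.35% lower, with 25 members lower as before. The replicate numbers are not stated to pair the livers. Of 18 pairs with the same number, 3 had deviations from the group means correlated above 0.1 (r = -0.11 to 0.24). Pairs with different numbers gave r = -0.32 to 0.28. With 3 livers in a group these correlations cannot exclude a pairing. With the replicate number as a block, 24 members were called for KO minus IDA after LPS (Dhx58 was lost, adjusted p = 0.0622), 31 and 33 for LPS in KO and IDA livers, 8 for the interaction (without Trim30a, adjusted p = 0.0633, with Irf1) and 0 in untreated livers. A fit of the compared groups alone was not run for the interaction, which needs all groups. Of the members, 11 were not detected on every array, so that signal over background limits their fold changes to bounds or understated values.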
